A study of Mus musculus with 16 samples.

Results

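The Hippo pathway core components are 10 genes, namely Nf2, Stk3, Stk4, Sav1, Mob1a, Mob1b, Lats1, Lats2, Yap1 and Wwtr1, and they were chosen by gene symbol or, where the files list Ensembl identifiers, by the identifier that the GENCODE annotation pairs with that symbol. All 10 were found among the 38926 gene names of the table of wild-type bone endothelial cells (ECs), among the 38926 names of the Lats2 table and among the 21603 identifiers of the Yap1/Taz files. The study sequenced RNA of ECs sorted from C57BL/6 mouse bone, and 16 libraries were analysed in 3 separate comparisons. Wild-type ECs of 3-week-old mice carrying the Cdh5-mT/nG reporter came either from the metaphysis (mpECs, 3 libraries) or from the diaphyseal marrow (bmECs, 3 libraries). The Yap1/Taz groups hold 3 libraries each at postnatal day 21, and all 6 carry Yap1flx/flx and Wwtr1flx/flx alleles, with Cdh5CreERT2 absent in the controls and present in the libraries labelled ECKO. The Lats2 groups hold 2 libraries each with Lats2flx/flx alleles, from 3-week-old mice per the methods. Cdh5CreERT2 was absent in their controls and present in the libraries labelled cKO. Cdh5CreERT2 is a tamoxifen-dependent recombinase under an endothelial promoter, pups were injected with tamoxifen in the days after birth, and controls were littermates without Cre, so that an effect of Cre itself and an effect of the deletion cannot be told apart. The labels give replicate numbers without saying which mouse or how many mice a library holds, and p-values therefore measure only the spread between these libraries.

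The Hippo pathway is a kinase cascade that restrains 2 related transcriptional co-activators, Yap1 and Taz, the latter encoded by Wwtr1. The scaffold Nf2 (merlin) recruits the cascade to the membrane, the Ste20-like kinases Stk3 (Mst2) and Stk4 (Mst1) act with the adaptor Sav1 and phosphorylate Mob1a, Mob1b and the kinases Lats1 and Lats2, and Lats kinases then phosphorylate Yap1 and Taz, which are kept in the cytoplasm by 14-3-3 proteins or degraded. When the kinases are inactive, Yap1 and Taz enter the nucleus and act through TEAD factors on genes such as Ctgf and Cyr61. Much of this control is on protein, and an mRNA level says nothing of phosphorylation or of location in the cell.

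The deposited values are FPKM, a level per length in which reads on a gene are divided by its size and by the depth of the library, and each comparison was made within its own table. Reads recovered from the FPKM values numbered between 4732694 and 14756144 per library, with the mpEC and bmEC libraries the deepest. All 8 endothelial markers on a fixed list (Pecam1, Cdh5, Kdr, Emcn, Tek, Tie1, Erg, Eng) were present in each library. Their summed level was 945 to 1224 FPKM in mpECs and 1107 to 1166 FPKM in bmECs, 442 to 475 FPKM in Yap1/Taz controls and 517 to 606 FPKM in the libraries labelled ECKO, and 1932 to 2015 FPKM in Lats2 controls and 1816 to 1939 FPKM in Lats2 cKO. In the Yap1/Taz comparison 0 of the 8 single markers passed with limma. There, Pecam1, Cdh5, Kdr, Emcn, Tek and Tie1 were higher in each library labelled ECKO than in each control, while Erg and Eng overlapped. Of all genes, 12.3% were higher there without overlap. In the other comparisons single markers did not move as 1 set. Between bone regions 3 passed as higher and 3 as lower, and in Lats2 cKO 1 passed as higher and 2 as lower. In the latter, Pecam1 was at 188 to 207 FPKM in controls and 346 to 369 FPKM in cKO, whereas Tek was at 213 to 215 FPKM and 65.2 to 107 FPKM, and Kdr at 324 to 338 FPKM and 150 to 196 FPKM. Values divided by this sum thus depend on which endothelial markers it holds. Markers of blood cells were also high in the sorted cells. The sum of 5 erythroid markers was 17610 to 37670 FPKM over mpEC and bmEC libraries and 3320 to 4996 FPKM over the Yap1/Taz libraries, and it was 1852 to 2559 FPKM in Lats2 controls against 146 to 1070 FPKM in Lats2 cKO. In the Lats2 comparison the summed markers of neutrophils (1918 to 2873 FPKM in controls and 703 to 843 FPKM in cKO) and B cells (52.6 to 59.4 FPKM and 17.98 to 20.9 FPKM) were lower in both cKO libraries too. The sum of 5 macrophage markers (409 to 501 FPKM and 61.5 to 276 FPKM) was mostly Lyz2, which neutrophils also express. Of the other macrophage markers, C1qa was higher in both cKO libraries (0.647 to 1.74 FPKM in controls and 3.09 to 7.39 FPKM in cKO), Csf1r, Cd68 and Emr1 overlapped, and 0 of the 4 tested were called lower with limma. The sum of 5 pericyte and stromal markers was higher in both cKO libraries, at 31.0 to 37.8 FPKM in controls and 53.3 to 62.6 FPKM in cKO, and 2 of the 4 tested passed as higher. Pdgfrb, a receptor of pericytes, was at 0.215 to 0.587 FPKM in controls and 1.69 to 3.63 FPKM in cKO, and Rgs5 at 1.33 to 1.41 and 3.79 to 8.79 FPKM. In bulk RNA, fewer cells of a type and less RNA per cell cannot be told apart.

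Yap1 lies on the minus strand of chromosome 9 of GRCm38 from 7931999 to 8004596, Wwtr1 on the minus strand of chromosome 3 from 57455649 to 57575910 and Lats2 on the minus strand of chromosome 14 from 57689662 to 57758388. These are the 3 genes that carry loxP sites in the mutants, and which exons the loxP sites flank is not given in the sources used here. FPKM values count reads over the whole gene, whereas the quantitative PCR primers of the study read a short stretch of the coding sequence. Primer sequences are shown, in capitals throughout, because they mark the part of a transcript that those assays detect. The Wwtr1 forward primer, which holds an ambiguous letter as given, is left out, so only 1 end of the Wwtr1 stretch is marked.
Yap1 forward: TGAGATCCCTGATGATGTACCAC
Yap1 reverse: TGTTGTTGTCTGATCGTTGTGAT
Wwtr1 reverse: GGTCTTGCCATGTGGTGATTTT
The Yap1 forward primer matched exon 2 of the 9 exons of transcript Yap1-201 (chromosome 9, 8001512 to 8001534), and the reverse primer matched the opposite strand with 1 base in exon 2 and 22 bases in exon 3 (7973890 to 7973911). The Wwtr1 reverse primer matched exon 3 of the 7 exons of Wwtr1-201 (chromosome 3, 57501837 to 57501858). All matched bases were coding. In the Lats2 gene model, 42.4% of exon bases are shared with another annotated gene on the same strand, Gm49361, so reads there may have been left out or split. Of Sav1, 25.4% of exon bases overlap Atl1 on the other strand, and of Yap1, 1.25% overlap Gm20416 on the other strand. Whether reads were counted by strand is not given in the sources used here.

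RefSeq promoter windows (GRCm38.p6, 250 bases before to 50 after a gene start) were available for 9 of the 10 members, all but Stk3, in 12 windows. Members are counted per gene below, whereas the share over all is per window. A gene with several windows has more chances to match. The letters GGAATG or their reverse complement CATTCC, the core of the motif bound by TEAD factors, were found in the windows of 5 members (Yap1, Wwtr1, Lats2, Sav1, Mob1a) and in 14.7% of all 32851 windows. Stretches of 80 bases around the match are shown for the 3 genes that were targeted in the mutants, with the motif in capitals and all on the minus strand.
Wwtr1, chr3:57576004-57576083: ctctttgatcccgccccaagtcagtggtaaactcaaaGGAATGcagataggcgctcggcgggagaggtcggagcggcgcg
Yap1, chr9:8004695-8004774: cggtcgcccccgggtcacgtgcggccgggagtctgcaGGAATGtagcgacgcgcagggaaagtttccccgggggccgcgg
Lats2, chr14:57746114-57746193: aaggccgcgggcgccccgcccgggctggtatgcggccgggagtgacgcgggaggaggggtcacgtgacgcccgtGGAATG
Counted from the start of the RefSeq window's transcript, with negative positions before it, the match began at -136 in Wwtr1, at -141 in Yap1 and at 5 in Lats2. From another annotated start of Wwtr1, the same match lies at -170. The Lats2 start used here is internal to the longer GENCODE gene model given above. The hypoxia response core ACGTG or CACGT, 2 forms that overlap in CACGTG, was found in the windows of Yap1, Lats1, Lats2, Stk4 and Mob1b, again 5 members, and in 19.6% of all windows. A match of these letters is a description of the sequence, and binding was not measured here.

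Mean levels of the core genes in mpECs ran from 1.90 to 30.1 FPKM. The kinase gene Stk3 had the highest level per length (30.1 ± 0.199 FPKM, SD, n = 3), followed by Mob1a (26.3 ± 1.90), Wwtr1 (12.5 ± 2.12) and Lats2 (6.27 ± 0.482). Stk4 (4.30 ± 0.675) and Sav1 (3.45 ± 0.687) came next with overlapping libraries. Mob1b (2.49 ± 0.0345), Nf2 (2.24 ± 0.327), Yap1 (2.03 ± 0.297) and Lats1 (1.90 ± 0.208) formed the lowest group, in which each overlapped its neighbour in the order. In bmECs the first 4 genes stood in the same order, and Sav1 (4.12 ± 0.411) then lay above Stk4 (3.46 ± 0.128), Mob1b, Nf2, Lats1 and Yap1, which overlapped from each to the next.

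The order was different in the Yap1/Taz files. Mob1a led in their controls (52.8 ± 1.97 FPKM, SD, n = 3), followed by Stk4 (36.7 ± 1.01) and Sav1 (18.8 ± 0.657). Wwtr1 (10.1 ± 0.240), Stk3 (10.1 ± 0.703), Lats1 (9.76 ± 1.39), Nf2 (8.66 ± 0.440) and Lats2 (8.64 ± 0.883) overlapped from each to the next, and Mob1b (2.01 ± 0.175) and Yap1 (1.23 ± 0.339) were lowest. In Lats2 controls Wwtr1 led (56.3 ± 3.60 FPKM, SD, n = 2), followed by Mob1a (34.7 ± 1.46), Lats2 (23.7 ± 0.471), Stk3 (18.1 ± 2.08) and Sav1 (12.96 ± 0.812), with Nf2 (8.70 ± 2.85) and Stk4 (7.55 ± 0.242) overlapping, then Yap1 (2.14 ± 0.0107) overlapping Lats1 (2.00 ± 0.226), and Mob1b (1.25 ± 0.181) lowest. Yap1 was among the 3 lowest core genes in each of the 6 groups and Mob1a among the 2 highest. The 3 tables were normalised separately and use different gene sets, so that these levels stand side by side without a test between tables.

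**Figure D1:**
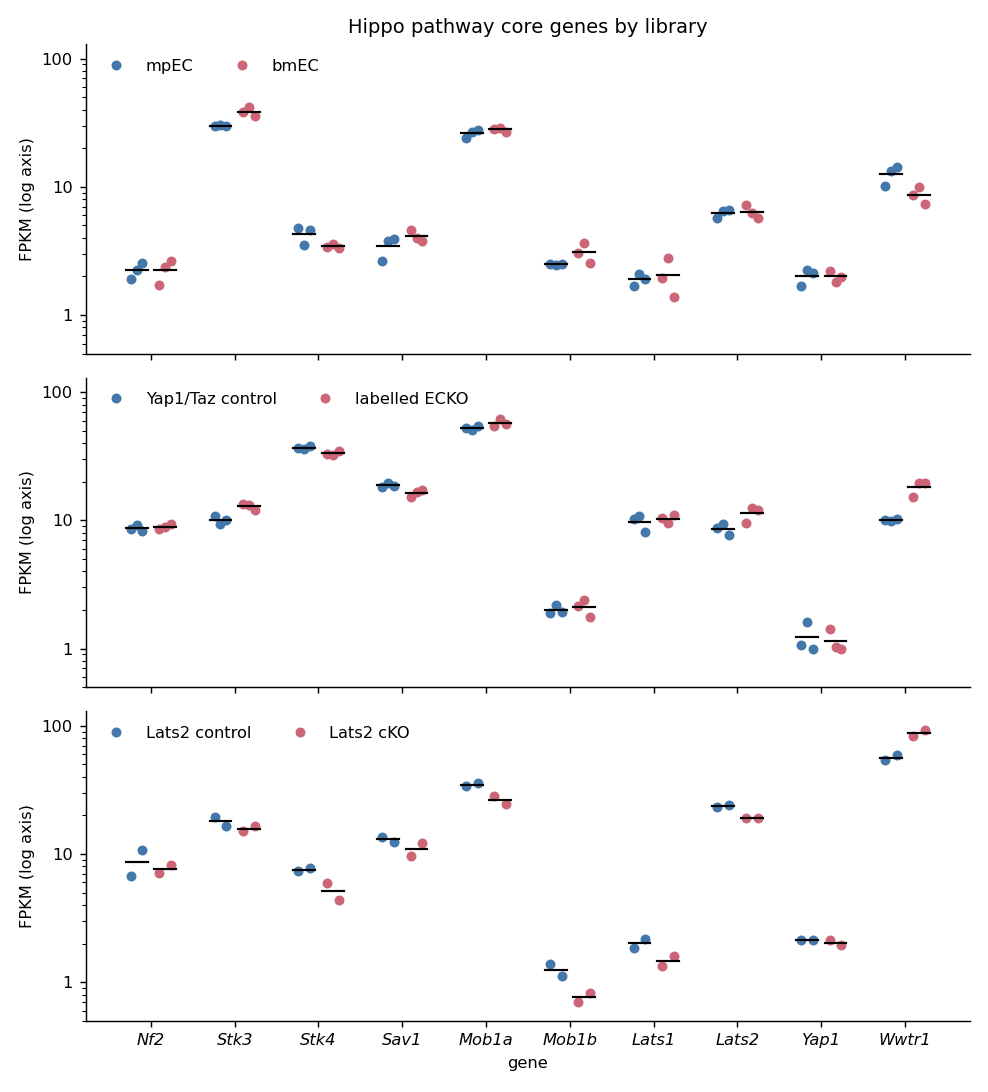
FPKM on a log axis (y) of the 10 core genes (x), 1 point per library and a line at the mean, for mpEC and bmEC libraries (top), Yap1/Taz control libraries and libraries labelled ECKO (middle) and Lats2 control and cKO libraries (bottom). Yap1 stays between 0.989 and 2.26 FPKM in all 16 libraries, while Wwtr1 spans 7.41 to 92.5 FPKM.

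The targeted genes were examined first. Wwtr1, in the Yap1/Taz files, was at 10.01, 9.88 and 10.3 FPKM in the controls and at 15.3, 19.6 and 19.5 FPKM in the libraries labelled ECKO. Each library labelled ECKO was thus above each control, although Wwtr1 is a targeted gene there. Whole-gene FPKM cannot show whether single exons were lost, and the labels are taken as given. The mean was 1.80-fold higher, a difference of 0.78 in log2(FPKM + 1) (95% interval 0.52 to 1.04), and passed limma's test with Benjamini-Hochberg adjustment over all genes (adjusted p = 0.0272). Yap1 was at 1.07, 1.62 and 0.995 FPKM in the controls and at 1.43, 1.03 and 0.989 FPKM in the libraries labelled ECKO, from 47 to 103 reads per library. The groups overlapped, and the log2 difference of -0.04 had an interval of -0.45 to 0.36 (adjusted p = 0.934). Neither targeted gene thus gave a lower level beyond the spread, and directions in this comparison are given for the libraries labelled ECKO, as labelled.

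The Wwtr1 call rested on single libraries. Its adjusted p was 0.0752 without control replicate 2, 0.0715 without control replicate 3, 0.180 without ECKO replicate 2 and 0.144 without ECKO replicate 3, with log2 differences between 0.72 and 0.89 over 16 alternative settings. It was 0.0679 without a filter on low values and 0.0570 without a mean-variance trend in the fit. The libraries parted by group in the summed endothelial markers as well, and in the summed osteoblast markers, at 27.7 to 34.6 FPKM in controls and 8.58 to 17.4 FPKM in the libraries labelled ECKO; the part of the osteoblast markers was not tested. Per 100 FPKM of those 8 markers, Wwtr1 was at 2.08 to 2.28 FPKM in controls and 2.96 to 3.37 FPKM in the libraries labelled ECKO, and the groups were still separate with a log2 difference of 0.53 (two-sided exact permutation p = 0.1, the smallest that 3 libraries against 3 can give). On this scale, chosen after the data were seen, Lats2 and Stk3 overlapped between groups while Stk4, Sav1, Mob1a, Mob1b and Nf2 were lower in each library labelled ECKO. The divisor was itself higher in each library labelled ECKO, so a gene with equal FPKM comes out lower. In FPKM, Mob1b and Nf2 overlapped and Mob1a was higher in each library labelled ECKO. The share of all genes that part on this scale was not computed.

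Lats2, in its own table, was at 23.4 and 24.0 FPKM in the controls and at 19.2 and 19.2 FPKM in the cKO libraries. Both cKO libraries were below both controls, at 0.809 of the control mean. The log2 difference of -0.29 (95% interval -0.58 to -0.01) did not pass the test (adjusted p = 0.125), and 504 to 997 reads per library stood behind it. Wwtr1, which is not targeted here, was at 53.8 and 58.9 FPKM in controls and at 83.3 and 92.5 FPKM in cKO. It rose by 0.63 on the log2 scale (interval 0.32 to 0.95, adjusted p = 0.0257), 1.56-fold. Relative to the summed endothelial markers, Wwtr1 was at 2.78 to 2.92 FPKM per 100 FPKM in controls and 4.30 to 5.09 in cKO, a log2 difference of 0.71 (exact permutation p = 0.333, the smallest possible with 2 against 2). The pericyte and stromal markers were higher in the same libraries, as given above, and their part in the Wwtr1 difference was not tested. The adjusted p of Wwtr1 was 0.214 without control replicate 1, 0.167 without control replicate 2 and 0.0728 without cKO replicate 2, and without either control replicate 0 genes of the whole table passed.

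**Figure D2:**
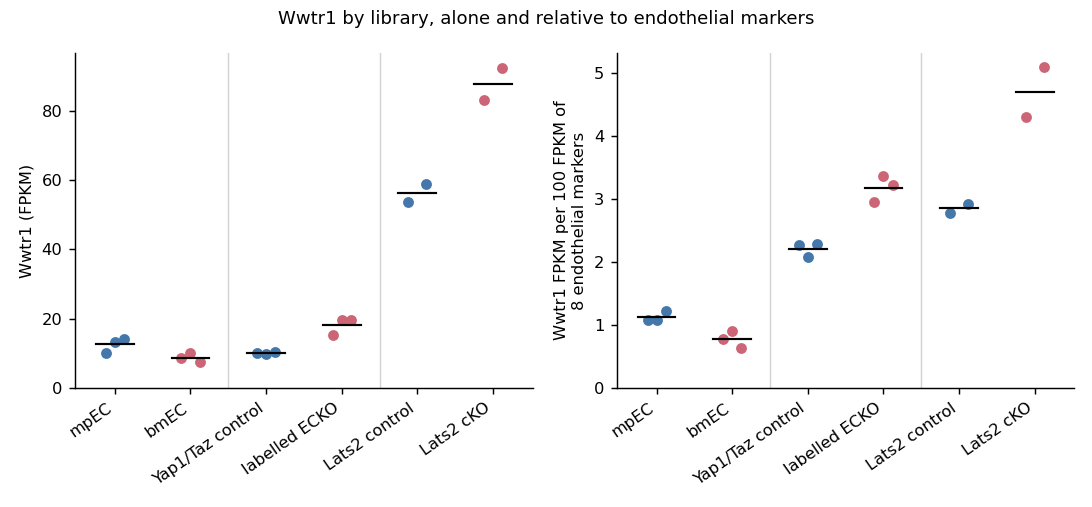
Wwtr1 in FPKM (left) and per 100 FPKM of the summed 8 endothelial markers of the same library (right), 1 point per library and a line at the mean of each group; grey lines separate the 3 tables, which were normalised separately. In both panels the libraries labelled ECKO and the Lats2 cKO libraries lie above their controls and the bmEC libraries below the mpEC libraries.

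In each of the 3 comparisons all 10 members passed the filter of a mean of at least 1 FPKM, and 1 of the 10 passed the test at an adjusted p under 0.05, each time with the higher level in the second group. Of all genes tested, 23.5% passed between bmECs and mpECs, 1.31% between libraries labelled ECKO and controls, and 21.8% between Lats2 cKO and controls. By direction, 13% of all genes were higher and 10.5% lower in bmECs, 0.883% higher and 0.424% lower in the libraries labelled ECKO, and 11.8% higher and 9.98% lower in Lats2 cKO. The libraries of the 2 groups did not overlap for 3 of 10 members between bmECs and mpECs (41.3% of all genes), for 6 of 10 in the Yap1/Taz comparison (23.6%) and for 9 of 10 in the Lats2 comparison (68.2%). The median log2 difference of the members was 0.04, 0.06 and -0.26, against a median over all genes between -0.005 and -0.001. Differences were above 0 for 6 of 10 members between bone regions (49.9% of all genes), for 7 of 10 in the libraries labelled ECKO (48.9%) and for 1 of 10 in Lats2 cKO (49.7%). Both Lats2 cKO libraries lay below both controls for 8 of 10 members (34.2% of all genes) and above them for 1 (34% of all genes). An unadjusted p under 0.05 was found for 2, 3 and 4 of the 10 members, against 36.1%, 17.9% and 38.6% of all genes. In Lats2 cKO these 4 were Wwtr1 and, with negative differences that did not pass after adjustment, Lats2, Stk4 and Mob1a.

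**Figure D3:**
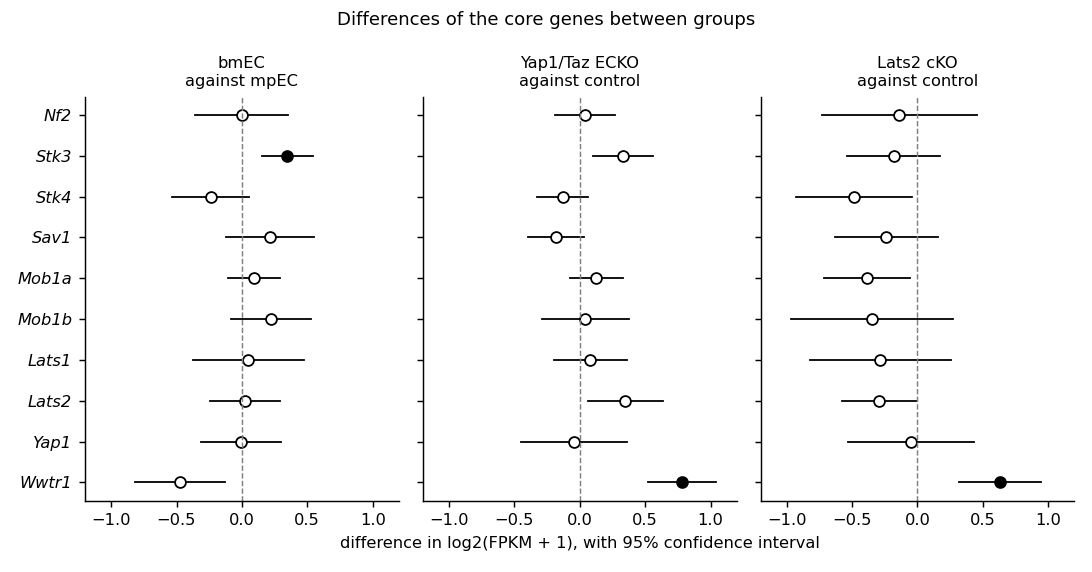
Difference in log2(FPKM + 1) (x) of each core gene (y), second group minus first, with limma's 95% confidence interval; filled points passed at an adjusted p under 0.05 over all genes. Stk3 passes between bmECs and mpECs, and Wwtr1 passes in both mutant comparisons, with positive differences of 0.35, 0.78 and 0.63.

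Nf2, the scaffold upstream of the kinases, differed least between bone regions. The mpEC libraries were at 1.90, 2.26 and 2.55 FPKM and the bmEC libraries at 1.71, 2.37 and 2.65 FPKM, with the groups interleaved. The log2 difference was -0.003 with an interval of -0.36 to 0.35. In the libraries labelled ECKO it differed from controls by 0.04 (interval -0.19 to 0.27), and in Lats2 cKO by -0.14 (interval -0.73 to 0.46). There the controls, at 6.68 and 10.7 FPKM, lay on either side of the cKO libraries at 7.07 and 8.21 FPKM.

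Stk3 encodes Mst2, and its level was higher in bmECs. The mpEC libraries stood at 29.9, 30.3 and 30.1 FPKM and the bmEC libraries at 38.5, 41.6 and 35.7 FPKM. The mpEC libraries lay within 1 FPKM of each other and below each bmEC library, and the gene rose by 0.35 on the log2 scale (SE 0.083, interval 0.16 to 0.54, adjusted p = 0.0195), 1.28-fold. It passed in 12 of 16 alternatives, with adjusted p-values from 0.0152 to 0.0740, and it missed when mpEC replicate 2 was left out (0.0508), and likewise for mpEC replicate 3 (0.0647). Leaving out bmEC replicate 1 gave 0.0625 and leaving out the second bmEC library gave 0.0740. Per 100 FPKM of endothelial markers the regions overlapped in Stk3, at 2.47 to 3.16 FPKM in mpECs against 3.06 to 3.76 FPKM in bmECs (log2 difference 0.32, exact permutation p = 0.2). The summed macrophage markers, mostly Lyz2 (1029 to 1883 FPKM in mpECs, 679 to 948 FPKM in bmECs), and the osteoblast and chondrocyte markers parted the same groups, and their part in the Stk3 difference was not tested. Among the Yap1/Taz libraries Stk3 was at 10.7, 9.33 and 10.1 FPKM in controls and at 13.4, 13.2 and 12.1 FPKM in the libraries labelled ECKO, again without overlap. That log2 difference of 0.33 (interval 0.10 to 0.56) did not pass over all genes (adjusted p = 0.136). In Lats2 cKO Stk3 differed by -0.18 (interval -0.54 to 0.17).

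Stk4 encodes Mst1, the other Ste20-like kinase of the core and an abundant kinase of lymphocytes. In the mpEC and bmEC libraries it was far below Stk3, with mpEC libraries at 4.76, 3.52 and 4.604 FPKM and bmEC libraries at 3.42, 3.61 and 3.36 FPKM. The groups overlapped through mpEC replicate 2 (log2 difference -0.24, interval -0.53 to 0.05, adjusted p = 0.216). It was above Stk3 in the Yap1/Taz files, at 36.4, 35.9 and 37.8 FPKM in controls and 33.1, 32.4 and 34.9 FPKM in the libraries labelled ECKO, separate by group but with a difference of -0.13 whose interval (-0.33 to 0.07) holds 0. Summed B cell markers were also lower in the libraries labelled ECKO, at 62.6 to 68.8 FPKM against 78.7 to 97.4 FPKM, and their part was not tested. In the Lats2 table it was at 7.37 and 7.72 FPKM in controls and at 5.92 and 4.39 FPKM in cKO, both below the controls, with a difference of -0.48 (interval -0.93 to -0.04, adjusted p = 0.109). The summed markers of erythroid cells, neutrophils and B cells, given above, were lower in the same 2 libraries, and their part in this difference was not tested.

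Sav1 is the adaptor that holds the Ste20-like kinases together. The mpEC libraries were at 2.66, 3.77 and 3.92 FPKM and the bmEC libraries at 4.57, 4.02 and 3.77 FPKM, which overlapped (log2 difference 0.21, interval -0.12 to 0.55). Among the Yap1/Taz libraries it was at 18.3, 19.5 and 18.5 FPKM in controls and 15.3, 16.7 and 17.4 FPKM in the libraries labelled ECKO, all below the controls. The difference of -0.18 (interval -0.40 to 0.03) did not pass, nor did that of -0.24 in Lats2 cKO (interval -0.63 to 0.15).

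Mob1a and Mob1b encode near-identical activators of the Lats kinases, and reads that fit both genes cannot be assigned to one. For Mob1a the mpEC libraries were at 24.2, 26.7 and 28.0 FPKM and the bmEC libraries at 28.3, 29.0 and 26.8 FPKM, which overlapped (log2 difference 0.09, interval -0.11 to 0.29). Mob1b was at 2.50, 2.45 and 2.52 FPKM in the 3 mpEC libraries and at 3.06, 3.67 and 2.55 FPKM in the 3 bmEC libraries, apart by a small margin at bmEC replicate 3 (0.22, interval -0.08 to 0.53, adjusted p = 0.267). In the libraries labelled ECKO Mob1a was higher in each than in each control, at 54.9, 61.6 and 56.8 FPKM against 53.0, 50.7 and 54.6 FPKM, with a difference of 0.13 (interval -0.08 to 0.33), and Mob1b overlapped. In Lats2 cKO Mob1a was at 28.5 and 24.4 FPKM against 33.7 and 35.8 FPKM in controls (-0.39, interval -0.72 to -0.05, adjusted p = 0.0934), the smallest adjusted p of the members that did not pass. Mob1b stood only just above the filter there, at 1.38 and 1.12 FPKM in controls and 0.703 and 0.827 FPKM in cKO, 0.612 of the control mean (-0.35, interval -0.97 to 0.27). Its difference was -0.64 with a pseudocount of 0.1 FPKM, -0.70 with one of 0.01 FPKM and -0.68 with limma-voom on recovered reads (adjusted p = 0.0889), and it did not pass in any of these fits.

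Lats1 and Lats2 are the kinases that phosphorylate Yap1 and Taz. Between bone regions both overlapped, and bmEC libraries spread more than mpEC libraries in Lats1, at 1.95, 2.81 and 1.38 FPKM, while mpEC libraries were at 1.69, 2.10 and 1.90 FPKM. For Lats2 the mpEC libraries were at 5.72, 6.52 and 6.58 FPKM and the bmEC libraries at 7.24, 6.27 and 5.71 FPKM. The interval of the log2 difference reached from -0.38 to 0.47 for Lats1 and from -0.24 to 0.29 for Lats2. In the Yap1/Taz files Lats2 was at 8.77, 9.45 and 7.70 FPKM in controls and at 9.50, 12.4 and 12.1 FPKM in the libraries labelled ECKO, with a narrow gap between control replicate 2 and ECKO replicate 1. The difference of 0.35 (interval 0.06 to 0.64) did not pass over all genes (adjusted p = 0.194), and Lats1 differed by 0.08 (interval -0.20 to 0.36). In the Lats2 table Lats1, the kinase that was left intact, was at 1.84 and 2.16 FPKM in controls and 1.34 and 1.60 FPKM in cKO, from 37 to 94 reads, so that both cKO libraries were below both controls (-0.28, interval -0.82 to 0.25, adjusted p = 0.374). No rise of Lats1 was detectable at this depth, and the interval ends at 0.25.

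Yap1 and Wwtr1, the co-activators at the end of the cascade, gave different pictures. Yap1 had a difference between -0.05 and -0.008 in the 3 comparisons. In the Lats2 table it was at 2.13 and 2.14 FPKM in controls and at 2.12 and 1.95 FPKM in cKO, from 74 to 118 reads, with an interval of -0.53 to 0.43. Wwtr1 passed in both mutant comparisons, as described above, and between bone regions its mpEC libraries, at 10.1, 13.2 and 14.2 FPKM, lay above its bmEC libraries, at 8.70, 9.91 and 7.41 FPKM. The gap between the regions was narrow, from 9.91 to 10.1 FPKM, and the adjusted p of 0.0532 missed the threshold (log2 difference -0.48, interval -0.82 to -0.13). It passed in 5 of 16 alternatives, with adjusted p-values from 0.0186 without mpEC replicate 1 to 0.167 without mpEC replicate 3, and at 0.0456 with a replicate block. The summed markers of osteoblasts stood at 109 to 521 FPKM in mpECs and 41.1 to 52.5 FPKM in bmECs and those of chondrocytes at 8.87 to 11.7 FPKM and 0.0116 to 0.0511 FPKM, and their part in the Wwtr1 difference was not tested.

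Ratios of paralogs within a library do not depend on library size. Wwtr1 exceeded Yap1 in all 16 libraries. The ratio was 5.96, 5.83 and 6.64 in mpECs and 3.92, 5.46 and 3.72 in bmECs, all of the latter below the former (log2 difference -0.51). It was 9.36, 6.11 and 10.4 in Yap1/Taz controls against 10.7, 19.0 and 19.7 in the libraries labelled ECKO (0.92), and 25.3 and 27.5 in Lats2 controls against 39.3 and 47.4 in cKO (0.71). In each comparison the groups were separate. The exact permutation p was 0.1 with 3 libraries against 3 and 0.333 with 2 against 2, the smallest values these designs allow, so that no ratio could pass 0.05, and adjusted over the 4 ratios the values were 0.2, 0.2 and 0.667.

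Lats2 exceeded Lats1 in the mpEC and bmEC libraries by 2.23-fold to 4.12-fold and in the Lats2 table by 11.1-fold to 14.3-fold, whereas in the Yap1/Taz files the ratio lay between 0.854 and 1.30. In Lats2 cKO the ratio of Lats2 to Lats1 was 14.3 and 12.01 against 12.7 and 11.1 in controls, and the groups overlapped. The ratio of Stk4 to Stk3 was 0.116 to 0.160 in mpECs and 0.0866 to 0.0943 in bmECs, all bmEC libraries below all mpEC libraries (log2 difference -0.66, exact permutation p = 0.1, adjusted 0.2). It was 3.39 to 3.84 in Yap1/Taz controls and 2.46 to 2.88 in the libraries labelled ECKO, also separate (-0.49, exact permutation p = 0.1, adjusted 0.2), and 0.266 to 0.464 over the Lats2 libraries, which overlapped. Mob1a exceeded Mob1b in all libraries, by 7.91-fold to 40.5-fold, and its ratio overlapped between groups in each comparison. The ratios of the Yap1/Taz files thus stood on the other side of 1 for Stk4 to Stk3 in all 6 libraries and, in the 4 libraries with values below 1, for Lats2 to Lats1, and no test was made between tables. The macrophage marker C1qa was at 360 to 524 FPKM over the Yap1/Taz libraries. It was at 4.63 to 10.5 FPKM over mpEC and bmEC libraries and at 0.647 to 7.39 FPKM over the Lats2 libraries. Csf1r and Cd68 were also highest in the Yap1/Taz libraries, whereas Lyz2 was highest in mpECs. The part of these markers in the ratios was not tested.

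**Figure D4:**
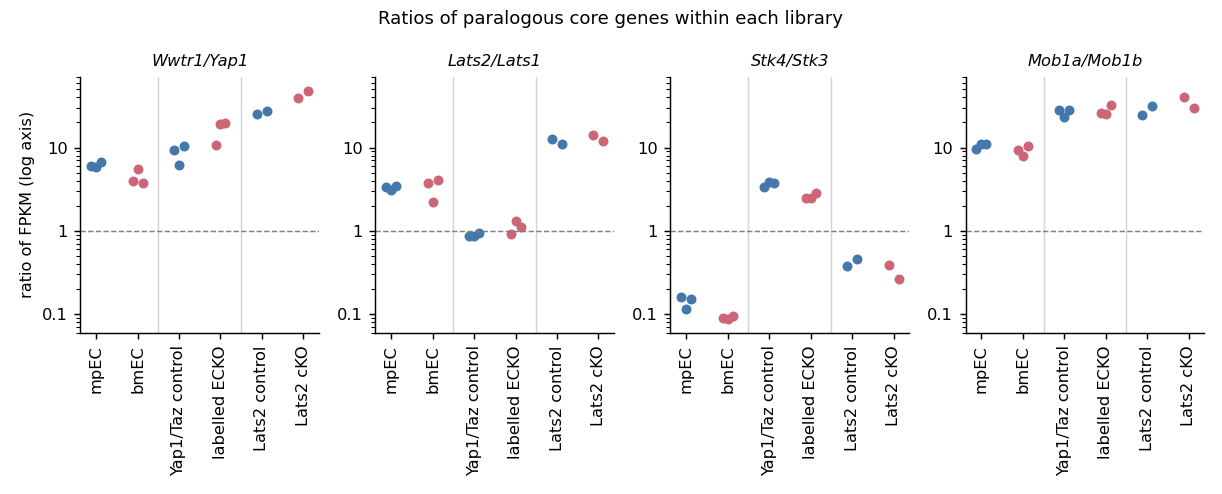
Ratio of the FPKM of 2 paralogous core genes within a library (y, log axis) in the 6 groups (x), 1 point per library; the dashed line marks a ratio of 1 and grey lines separate the 3 tables. Wwtr1 is above Yap1 and Mob1a above Mob1b in all 16 libraries, while Stk4 is above Stk3 only in the 6 libraries of the Yap1/Taz files, at 2.46 to 3.84.

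The other genes of the pathway were taken from 8 lists. The list counts stand beside the shares of all genes that passed. These were 13% higher and 10.5% lower in bmECs, and 0.883% higher and 0.424% lower in the libraries labelled ECKO. In Lats2 cKO they were 11.8% higher and 9.98% lower. Scaffolds and junction regulators recruit or bind the core, and of 7 tested between bone regions 1 was lower in bmECs, the atypical cadherin gene Dchs1 (2.28 ± 0.470 FPKM in mpECs, 0.859 ± 0.327 FPKM in bmECs, SD, n = 3, log2 difference -0.82, adjusted p = 0.0129). In the libraries labelled ECKO 0 of 9 passed with limma. In Lats2 cKO 2 of 8 rose and none fell, with a median difference of 0.38 against -0.003 over all genes. Amotl2, an angiomotin family member that binds Yap1, rose from 16.3 ± 1.10 to 30.7 ± 0.294 FPKM (SD, n = 2, adjusted p = 0.0131).

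Other kinases that act on or beside Lats belong to the Tao, Map4k and Stk38 families. Between bone regions 1 of 11 rose and 2 fell. Map4k5 rose from 11.0 ± 1.33 FPKM in mpECs to 22.5 ± 2.96 FPKM in bmECs (SD, n = 3, log2 difference 0.97, adjusted p = 0.00124), whereas Map4k2 (-0.88, adjusted p = 0.00605) and Map4k3 (-0.69, adjusted p = 0.0203) fell. Map4k5 was also the single gene of 12 that passed in the libraries labelled ECKO, where it was at 25.01 ± 1.15 FPKM against 17.6 ± 0.563 FPKM in controls (0.48, adjusted p = 0.0423). Of the 148 genes that passed in that comparison over the whole table, the count depended on single libraries, with 20 genes passing without control replicate 2, 14 without control replicate 3 and 1 without ECKO replicate 2 or 3. In Lats2 cKO 3 of 11 fell, namely Map4k5 from 58.4 ± 2.34 to 21.6 ± 1.32 FPKM (SD, n = 2, -1.39, adjusted p = 0.00758), Mink1 (-0.93, adjusted p = 0.0171) and Map4k1, a kinase of blood cells (-1.23, adjusted p = 0.0236). The blood cell markers that were lower in these 2 libraries are given above, and their part in these differences was not tested.

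Of the kinase cassette inhibitors and partners, which include Lats-binding LIM proteins and the Rassf family that binds Stk3 and Stk4, 1 of 7 passed between bone regions, Rassf4, which went from 3.13 ± 0.331 FPKM (mpECs) to 6.02 ± 0.962 FPKM (bmECs; SD, n = 3, adjusted p = 0.0056). In the libraries labelled ECKO 0 of 8 passed with limma. In Lats2 cKO 2 of 8 rose and 2 fell. Ajuba, a LIM protein that inhibits Lats kinases, rose from 7.80 ± 0.975 to 25.3 ± 1.82 FPKM (SD, n = 2, log2 difference 1.58, adjusted p = 0.00808) and Rassf2 from 0.628 ± 0.0828 to 2.60 ± 0.424 FPKM (adjusted p = 0.0274), while Rassf5 fell from 3.97 ± 0.231 to 0.937 ± 0.154 FPKM (adjusted p = 0.0143). Summed neutrophil, erythroid and B cell markers were lower in cKO and summed pericyte and stromal markers higher, as given above. Their part in these differences was not tested.

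The STRIPAK complex, a phosphatase assembly that opposes Stk3 and Stk4, had 0 of 10 genes past the test in each comparison, with medians of 0.03, -0.04 and -0.16. Phosphodegron kinases and ubiquitin ligases take part in the degradation of pathway proteins, not only of Yap1 and Taz. This list likewise had 0 of 6, 0 of 7 and 0 of 7, and its median was -0.37 in Lats2 cKO. These counts are from limma, and tests of the lists themselves were not made. Of 7 genes of 14-3-3 proteins, which hold phosphorylated Yap1 and Taz in the cytoplasm, 1 rose in bmECs (Ywhab, from 147 ± 6.40 to 180 ± 15.4 FPKM, SD, n = 3, adjusted p = 0.0498) and 1 was lower in the libraries labelled ECKO (Ywhag, 10.3 ± 1.46 FPKM in controls and 5.77 ± 0.506 FPKM in ECKO, adjusted p = 0.0382). In Lats2 cKO 3 of 7 rose, namely Ywhah from 180 ± 4.35 to 274 ± 14.5 FPKM (SD, n = 2, adjusted p = 0.0269), Ywhaq (0.49, adjusted p = 0.0398) and Ywhae (0.49, adjusted p = 0.0437).

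TEAD factors are the DNA-binding partners of Yap1 and Taz, and Vgll4 competes with them for TEAD. Between bone regions 2 of 3 tested genes fell and none rose. Vgll4 went from 33.0 ± 5.47 FPKM (mpECs) to 20.2 ± 1.56 FPKM (bmECs; SD, n = 3, log2 difference -0.67, adjusted p = 0.0074), and Tead2 was at 4.99 ± 1.02 and 2.75 ± 0.513 FPKM (-0.67, adjusted p = 0.0205). In the libraries labelled ECKO all 3 tested genes had positive differences with a median of 0.41, and 0 passed with limma. In Lats2 cKO 0 of 4 passed.

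The last list holds 22 genes of a widely used YAP/TAZ target signature, with Lats2 itself and the scaffold genes Amotl2 and Ptpn14 among them. Between bone regions 2 of 15 rose and 4 fell, a mixed picture with a median of -0.12. Axl, a receptor tyrosine kinase, rose (20.04 ± 4.75 FPKM in mpECs, 85.7 ± 9.08 FPKM in bmECs, SD, n = 3, adjusted p = 0.000124), and Igfbp3, a binding protein of insulin-like growth factors, fell (50.03 ± 8.85 and 6.60 ± 3.40 FPKM, adjusted p = 0.00035), as did the ectonucleotidase gene Nt5e (-1.13, adjusted p = 0.00253). The summed osteoblast and chondrocyte markers, given above, were lower in each bmEC library than in each mpEC library. Their part in the differences between bone regions, here and in the other lists, was not tested. In the libraries labelled ECKO 0 of 15 passed with limma, and the median was 0.03 against -0.005 over all genes.

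In Lats2 cKO 7 of 18 signature genes rose and 1 fell, with a median of 0.64 against -0.003 over all genes. Cyr61, a secreted matricellular protein and a common readout of Yap1 and Taz, rose from 36.3 ± 11.3 FPKM in controls to 426 ± 156 FPKM (SD, n = 2, log2 difference 3.502, adjusted p = 0.00808). Myof, which encodes the membrane protein myoferlin, rose from 0.434 ± 0.0545 to 13.1 ± 5.002 FPKM (3.25, adjusted p = 0.00758). Axl went the other way, from 30.5 ± 0.237 to 6.35 ± 0.850 FPKM (-2.10, adjusted p = 0.00654). In the same libraries the summed neutrophil, erythroid and B cell markers were lower and the summed pericyte and stromal markers higher, as given above, and their part in the differences of the signature genes was not tested. As stated for Wwtr1, no gene of this table passed without control replicate 1 or without control replicate 2, and 933 of 12396 passed without cKO replicate 2.

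**Figure D5:**
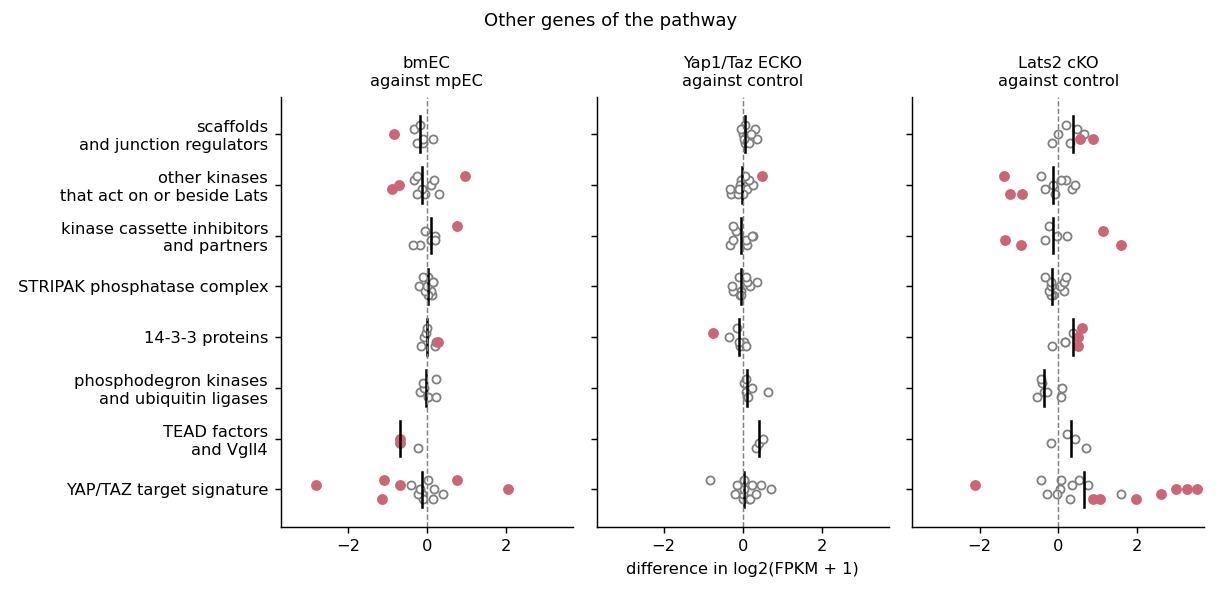
Difference in log2(FPKM + 1) (x) of the tested genes of 8 pathway lists (y, rows spread for visibility) in the 3 comparisons; filled points passed at an adjusted p under 0.05 over all genes, and black bars mark the list medians. The YAP/TAZ target signature has 7 higher and 1 lower filled points in Lats2 cKO, 2 and 4 between bmECs and mpECs, and none in the libraries labelled ECKO.

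Genes with a pattern close to that of a core gene were sought among the 9068 other genes tested in all 3 comparisons, as those with the smallest root mean square difference in log2(FPKM + 1) over the 16 libraries after centring each comparison. The closest to Wwtr1 were Ramp2 (0.139), an adrenomedullin co-receptor of endothelium, Myct1 (0.145) and Upp1 (0.153), against a spread of Wwtr1 itself of 0.348. Like Wwtr1, all 3 had negative differences in bmECs (-0.41, -0.41 and -0.24) and positive ones in the libraries labelled ECKO (0.55, 0.59 and 0.99) and in Lats2 cKO (0.57, 0.77 and 0.47). These shared directions follow from the way the genes were chosen. With limma, Ramp2 and Myct1 did not pass in the libraries labelled ECKO (adjusted p = 0.0642 and 0.0976). Upp1 did not pass between bone regions (adjusted p = 0.0815), and the other differences passed. The closest to Lats2 were Fbxl17 (0.0882), Gimap4 (0.0894) and Rab11a (0.0932), and to Yap1 Smpd2 (0.0828), Rnpepl1 (0.0865) and Ikbkb (0.0874). Yap1 itself spread by only 0.115, so that closeness to it is closeness to a nearly flat profile.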

How the data were processed

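RNA-seq was performed on sorted bone ECs in 16 libraries. Per the labels and the methods, the authors mapped reads with TopHat to GRCm38 (mm10), counted them per gene with HTSeq 0.6.1, used DESeq2 for their own tests, and deposited FPKM values, whose conversion from counts is not given in the sources used here. Libraries were made with a stranded total RNA kit. No column was left without a sample. In the Yap1/Taz files, 21375 of 21603 Ensembl identifiers were paired with a symbol.

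Here log2(FPKM + 1) was tested within each table for genes averaging 1 FPKM or more, with limma 3.58.1 (R 4.3.3), 1 group term, trended empirical Bayes moderation and Benjamini-Hochberg adjustment over all genes tested. Differences are second minus first group and understate changes of low genes. Paralog ratios were compared by two-sided exact permutation tests (scipy 1.17.1), adjusted over 4 ratios. Reads were recovered with exon lengths of GENCODE M21 for limma-voom; of low values, 62.3% to 70.1% came within 0.02 of a whole read, against 4% by chance, so that depth is approximate. Alternatives were other filters, pseudocounts, scalings and variance models, a replicate block and leaving out each library. The fit was also run on simulated counts that had the same spread beyond counting noise for every gene and comparison. That run is no check at the spread of these libraries, which differed between groups. The division by endothelial markers was added after the data were seen. No replicate pair agreed within counting noise. The members, lists and tests were chosen with earlier results of these data known. Genes named beside the members are the 3 with the lowest adjusted p per list and comparison among those that passed, and the 3 closest to Yap1, Wwtr1 and Lats2. A gene that this rule names is not reported here.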

Additional observations from a re-analysis of the deposited data

How the results depend on the processing

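Of the 447 alternative fits of single members, 411 kept direction and side of the threshold, 13 lost and 5 gained a call, and 18 turned direction. Members that turned had log2 differences between -0.0443 and 0.0822 in the main fit, except Nf2 in the Lats2 table (-0.14). The count of members that passed between bmECs and mpECs was 1, and it was 2, with Wwtr1 added, with a filter at 5 FPKM, with quantile normalization and with limma-voom on recovered reads. In the Yap1/Taz files the count of 1 went to 0 without a filter, where 1 gene in all passed, and without the mean-variance trend, where 17 did, against 148. Over all genes of this comparison, 386 passed with limma-voom on recovered reads. Without a filter 1389 genes passed between Lats2 cKO and controls, against 2711. Leaving out 1 library gave counts from 0 to 2 between bone regions and from 0 to 1 in the Yap1/Taz files and in the Lats2 table. Over the latter fits the log2 difference between bone regions ranged from -0.0905 to 0.0471 for Yap1, from -0.13 to 0.21 for Lats1, from -0.0563 to 0.0914 for Lats2 and from -0.0940 to 0.12 for Nf2; in the Yap1/Taz files from -0.14 to 0.0773 for Yap1, from -0.0277 to 0.15 for Lats1 and from -0.0264 to 0.12 for Mob1b; and in the Lats2 table from -0.44 to 0.17 for Nf2. Between bone regions quantile normalization turned Yap1 to 0.0744 and Nf2 to 0.0804, and limma-voom turned Nf2 to 0.0308. For the ratio of Lats2 to Lats1 the difference ranged from -0.20 to 0.24 between bone regions when a library was left out, and for Mob1a to Mob1b from -0.0404 to 0.12 in the Yap1/Taz files. With 1 FPKM added to both genes, the differences in Lats2 cKO turned to -0.00966 for Lats2 to Lats1 and to -0.0359 for Mob1a to Mob1b. Relative to the summed endothelial markers, the log2 difference in the libraries labelled ECKO turned to -0.22 for Lats1, -0.18 for Mob1a, -0.25 for Mob1b and -0.26 for Nf2, and that of Yap1 in Lats2 cKO to 0.00235. The endothelial sum was itself higher in each library labelled ECKO, which lowers genes on that scale. Why single fits differ was not tested. With 2 libraries a group, the Lats2 comparison has the least precision, and the 37 to 118 reads on Lats1 and Yap1 there limit those genes.

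Same-numbered libraries did not deviate together throughout, with correlations of 0.307, 0.0876 and 0.102 between bone regions, -0.175, -0.123 and -0.155 in the Yap1/Taz files and 0.0651 in the Lats2 table, so the numbers were not taken to pair the libraries. Of the libraries, 4 of 6 between bone regions and 0 of 6 in the Yap1/Taz files correlated best with their own number, a hint from the data only. In the Lats2 table, with 2 libraries a group, the deviations from a group mean mirror each other. Its 4 of 4 thus follows from the sign of 1 correlation and gives no hint of pairing. With a replicate block the count of members was 2 between bone regions (Wwtr1 adjusted p = 0.0456), 1 in the Yap1/Taz files, where 45 genes in all passed, and 1 in the Lats2 table.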
